A study of Homo sapiens with 6 samples.

Results

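The 48 genes described here encode the glucose transporters, the enzymes of glycolysis, the pyruvate branch point and the enzymes of the tricarboxylic acid (TCA) cycle. They were taken by gene symbol from a list of named enzymes, and all 48 were found among the 61806 genes of the deposited table. RNA came from HEK293 cells, a human line made from embryonic kidney cells transformed with adenovirus DNA. Of the 6 libraries, 3 came from cells edited to carry rs16851030 by CRISPR with homology-directed repair (called mutant here) and 3 from wild-type cells. Both groups were grown in the same serum-containing DMEM. The labels number the libraries as replicates without saying what was replicated. Nor do the sources used here say whether the edited cells were 1 clone or whether the wild-type cells went through the editing steps, so p-values measure the spread between these libraries. The comparison asks which transcripts differ between these edited and wild-type cells. The variant cannot be told apart from other differences between the groups.

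Glycolysis splits glucose into pyruvate in the cytosol. Hexokinase traps the sugar, phosphofructokinase commits it, and the later steps return ATP and NADH. Pyruvate is then reduced to lactate by lactate dehydrogenase, carboxylated to oxaloacetate, or carried into mitochondria, where the pyruvate dehydrogenase complex turns it into acetyl-CoA for the TCA cycle. Pyruvate dehydrogenase kinases switch that complex off. Many steps have isozymes encoded by separate genes, and cultured lines such as HEK293 are known for making much lactate.

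Depth was 16013460 to 20349609 assigned counts per library, and the 48 genes had 65 to 46930 counts each in a library. Their summed share of the counts ran from 1.31 to 1.36% across mutant replicates and from 1.42 to 1.46% across wild-type replicates. The share of counts from the mitochondrial genome was 1.28 to 1.58% against 1.91 to 2.33%. Among markers used to check the cell type label, PTPRC and HBB of blood cells were listed at 0 FPKM (counts scaled by exonic length and library total), and the endothelial and hepatic ones lay at 0 to 0.16 FPKM. VIM (86.1 to 166 FPKM) and NEFM (19.5 to 28.4 FPKM), of mesenchymal and neuronal cells, were high, while the kidney lineage genes PAX8 and CDH6 were listed at 0, PAX2 did not exceed 0.27 FPKM and LHX1 lay at 0.71 to 1.28 FPKM. VIM, INA, NEFM and KRT18 were lower, and PAX2, KRT8, EPCAM, COL1A1 and NEFL higher, in all mutant libraries than in all wild-type libraries. For VIM, 86.1 to 88.3 FPKM in the mutant stood against 143 to 166 FPKM in the wild type. The part of this in the results below was not tested. In RNA from whole cultures, fewer cells of a type and less RNA per cell cannot be told apart.

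Genes of central carbon metabolism differed between mutant and wild-type cells by small amounts and in both directions. The largest rise was that of IDH2, the mitochondrial NADP-dependent isocitrate dehydrogenase, and the largest fall that of IDH3B, a subunit of the NAD-dependent enzyme of the same reaction. All 48 genes passed the expression minimum (a mean of 1 FPKM). Of them, 12 were higher and 19 lower in the mutant at an adjusted p below 0.05 in edgeR's quasi-likelihood test, and 17 did not pass. That is 64.6% called, 25.0% higher and 39.6% lower, against 58.0% called, 29.4% higher and 28.7% lower among all 12550 tested genes. FPKM did not overlap between the groups for 32 of the 48 genes (66.7%), against 62.9% of all tested genes. The shares called in either direction and not overlapping are near the background, so the description rests on single genes. The median log2 fold change (mutant minus wild type) was -0.10, against -0.000708 for all tested genes. Of the 31 called genes, 26 differed by less than 1.5-fold, as did 75.3% of the 7284 called among all tested genes. IDH2 alone of the 48 differed by at least 2-fold, and 546 of the 12550 tested genes were called at that size. The split between higher and lower moved with the scaling: in limma on TPM, which gives each library the same sum of length-scaled values, 13 genes were higher and 12 lower. The split over all tested genes moved too: 62.4% of the genes called on TPM were higher, against 50.6% of those called in edgeR. Without the expression minimum, edgeR called 11 of the 48 higher and 25 lower, while 51.3% of all genes called in that fit were higher.

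**Figure D1:**
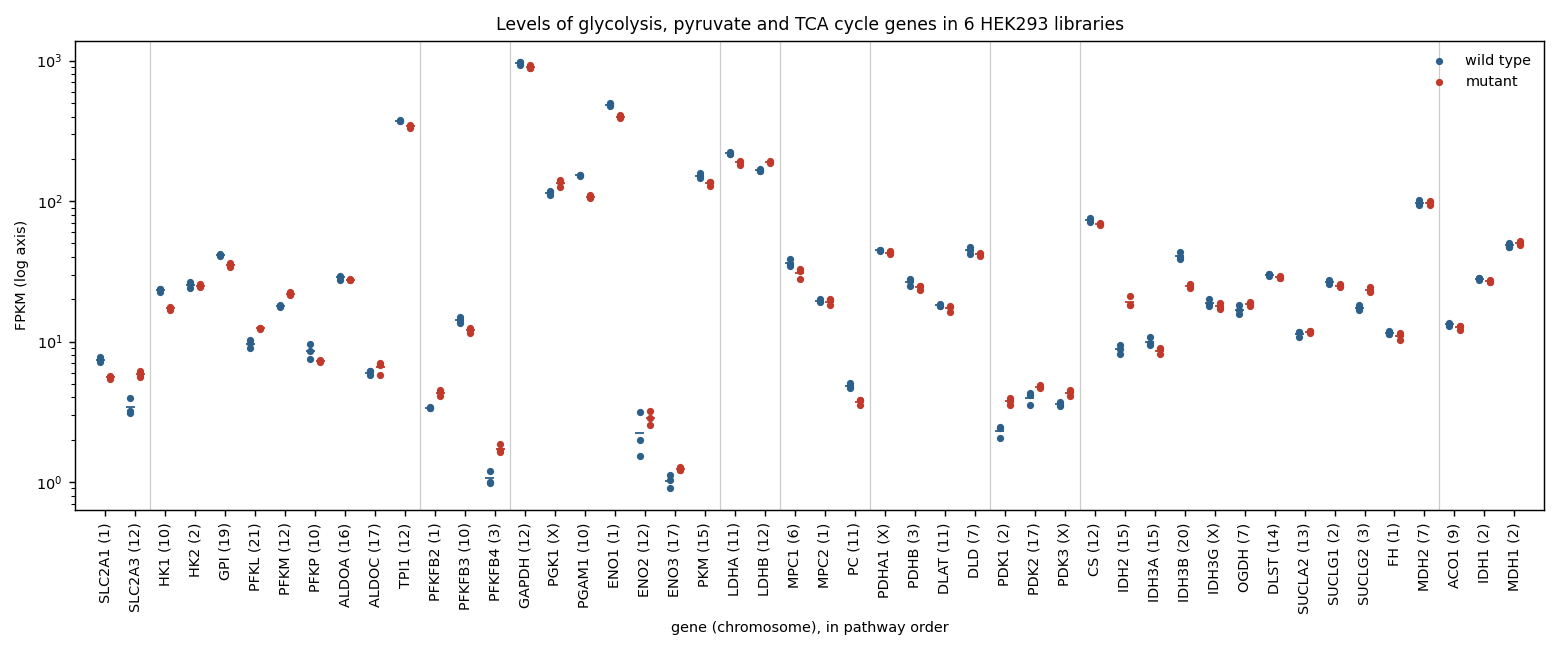
FPKM on a log axis for each of the 48 genes in pathway order, with the chromosome in brackets and vertical lines between stages. Each point is 1 library (wild type blue, mutant red) and each bar a group mean of 3; GAPDH (group means 897 and 962 FPKM) stands highest and ENO3 (1.24 and 1.02 FPKM) lowest, and the IDH2 points of the 2 groups lie farthest apart.

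**Figure D2:**
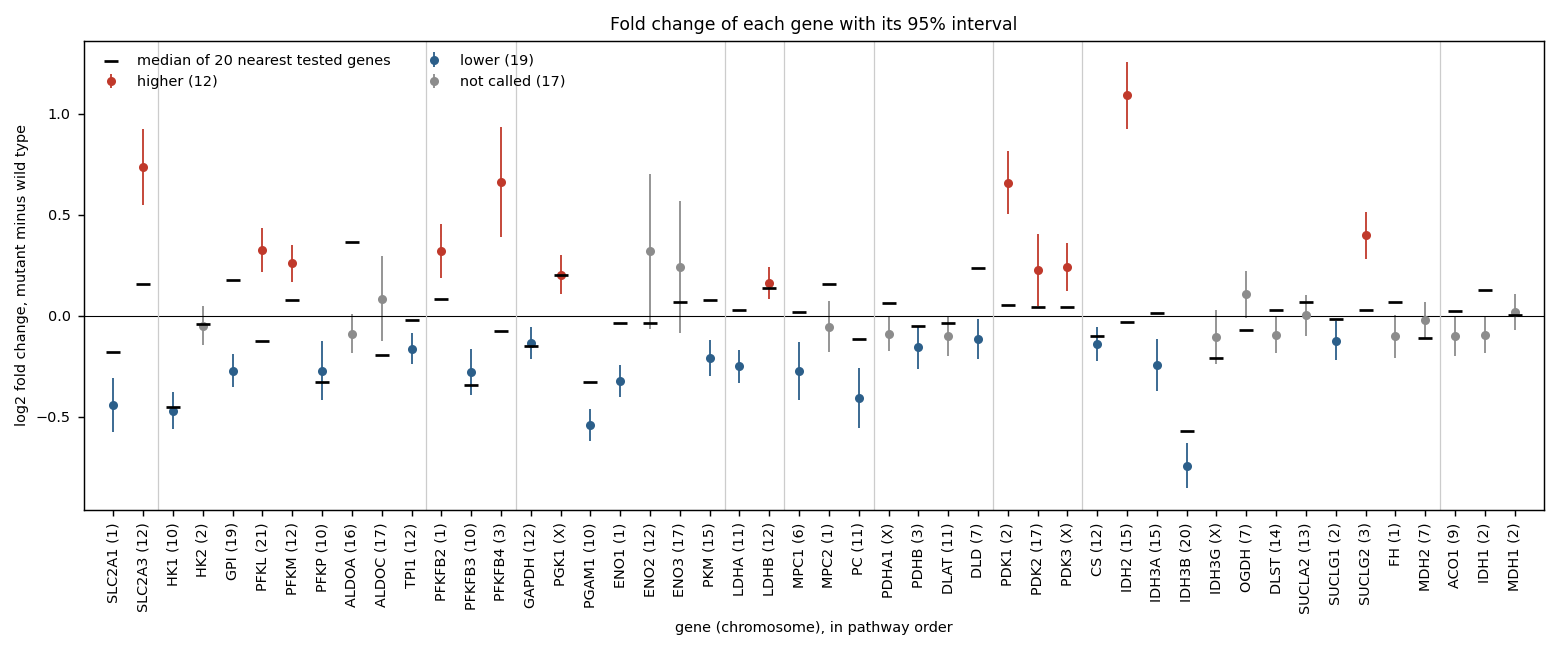
Log2 fold change of each gene (mutant minus wild type) with its 95% interval from edgeR, coloured by call (12 higher, 19 lower, 17 not called). Black dashes mark the median fold change of the 20 nearest tested genes on the chromosome; IDH2 lies far above its dash, while HK1 and PFKFB3 lie on or near theirs.

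The balance between glucose transporters differed between the groups. SLC2A1, which encodes the widespread basal transporter GLUT1 (chromosome 1), stood at 5.68, 5.61 and 5.37 FPKM in mutant replicates 1 to 3 and at 7.33, 7.70 and 7.10 FPKM in wild-type replicates 1 to 3. All mutant values lay below all wild-type values, a log2 fold change of -0.44 (SE 0.06, edgeR adjusted p = 1.13e-05). SLC2A3, which encodes the high-affinity transporter GLUT3 (chromosome 12), moved the other way, at 5.83, 5.56 and 6.16 FPKM in the mutant and 3.99, 3.09 and 3.21 FPKM in the wild type. Its log2 fold change was 0.74 (SE 0.09, edgeR adjusted p = 1.63e-06). SLC2A3 made up 51.3 ± 1.91% of the summed FPKM of the pair in the mutant and 31.7 ± 3.34% in the wild type (SD, n = 3), a difference in the log2 ratio of 1.19. The sum of the 2 transporters overlapped between the groups, at 11.4 ± 0.202 and 10.8 ± 0.505 FPKM (SD, n = 3).

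Ratios of this kind were computed for 16 pairs of paralogues, isozymes or subunits. They are taken within a library and so do not depend on the scaling between libraries. The groups did not overlap for 11 of the 16 pairs. Among all tested genes taken singly the share was 62.9%, and no share was computed for other gene pairs. Each of the 11 pairs had a two-sided exact permutation p of 0.1, the smallest that 3 against 3 libraries can give. After Benjamini-Hochberg adjustment over the 16 pairs it was 0.145. Sizes are therefore given as descriptions.

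**Figure D3:**
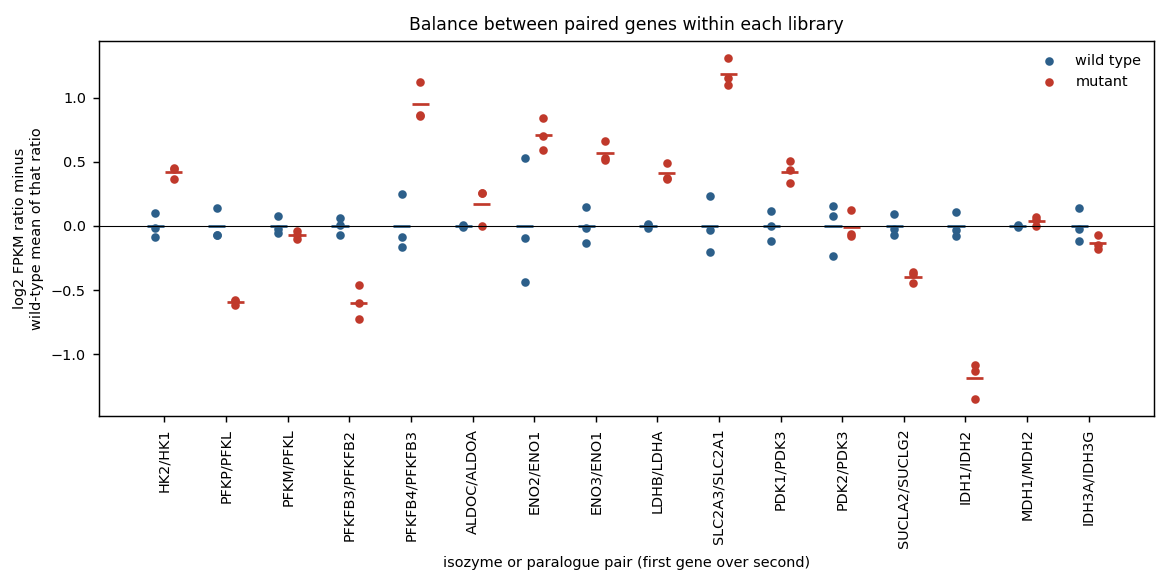
Log2 ratio of FPKM for 16 gene pairs, each shifted so that the wild-type mean is 0; points are libraries (wild type blue, mutant red), bars are group means of 3. The mutant points lie highest for SLC2A3/SLC2A1 (mean 1.19 above the wild type) and lowest for IDH1/IDH2 (mean difference -1.19), and PDK2/PDK3, MDH1/MDH2, IDH3A/IDH3G, ALDOC/ALDOA and PFKM/PFKL overlap.

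Among the 9 enzymes from hexokinase to triose phosphate isomerase, 2 were higher, 4 lower and 3 not called (66.7% called, against 58.0% of all tested genes). HK1, the widespread hexokinase that docks on mitochondria (chromosome 10), fell from 23.51, 22.69 and 23.74 FPKM in the wild type to 17.35, 17.57 and 16.77 FPKM in the mutant, a log2 fold change of -0.47 (SE 0.04, edgeR adjusted p = 6.87e-08). HK2, the inducible hexokinase of growing and tumour cells (chromosome 2), had a log2 fold change of -0.05 (95% interval -0.15 to 0.05) and its groups overlapped, at 25.0 ± 0.549 FPKM in the mutant and 25.3 ± 1.20 FPKM in the wild type (SD, n = 3). HK2 thus made up 59.2% of the summed hexokinase FPKM in the mutant and 52.0% in the wild type. The sum itself was lower in all mutant libraries, at 42.2 ± 0.657 against 48.6 ± 0.965 FPKM (SD, n = 3). GPI, which isomerises glucose 6-phosphate (chromosome 19), fell by 17.1% from 41.1 ± 0.661 FPKM (SD, n = 3) to 34.9 FPKM in the mutant.

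The 3 genes of phosphofructokinase, the committing step, did not move together. PFKL, the liver-type subunit (chromosome 21), stood at 12.18, 12.43 and 12.57 FPKM in the mutant and 9.83, 8.95 and 10.21 FPKM in the wild type, a log2 fold change of 0.33 (SE 0.05, edgeR adjusted p = 2.81e-05). PFKM, the muscle-type subunit and the most abundant of them (chromosome 12), rose by 19.7% to 21.9 ± 0.490 FPKM (SD, n = 3). PFKP, the platelet-type subunit (chromosome 10), fell by 17.2%, with mutant values of 7.13 to 7.34 FPKM just below wild-type values of 7.49 to 9.53 FPKM. The summed FPKM of the 3 was higher in all mutant libraries, at 41.5 ± 0.705 against 36.1 ± 1.83 (SD, n = 3), and PFKP relative to PFKL changed by -0.59 on the log2 scale. The call for PFKP was lost on TPM values (limma adjusted p = 0.0876). SENP1, on the strand opposite PFKM, had 30.4% as many counts as PFKM, and the sources used here do not say whether counting used the strand.

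Aldolase, which splits the 6-carbon sugar, was not called. ALDOA, the main form, lies on chromosome 16, whose other tested genes had a median log2 fold change of 0.29. ALDOA itself had a log2 fold change of -0.09 (95% interval -0.18 to 0.01, 27.5 ± 0.290 against 28.6 ± 0.958 FPKM, SD, n = 3). ALDOC, the brain-type form (chromosome 17), ran at 6.54 ± 0.679 FPKM in the mutant and 6.01 ± 0.208 FPKM in the wild type (SD, n = 3), and the groups overlapped. TPI1, triose phosphate isomerase (chromosome 12), fell by 10.7%, from 374 ± 3.76 to 342 ± 7.78 FPKM (SD, n = 3). Its 4 annotated pseudogenes had 1.27 to 1.54% as many counts as TPI1.

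The PFKFB genes encode enzymes that make and break fructose 2,6-bisphosphate, the strongest activator of phosphofructokinase. All 3 listed genes were called, as were 58.0% of all tested genes. PFKFB3, the most abundant and the one with the highest kinase activity, lies on chromosome 10. It fell from 13.56, 14.22 and 14.87 FPKM in the wild type to 12.14, 12.43 and 11.42 FPKM in the mutant, a log2 fold change of -0.28 (SE 0.05, edgeR adjusted p = 2.57e-04). PFKFB4 (chromosome 3) was low in both groups but rose from 1.20, 1.00 and 0.99 FPKM to 1.64, 1.69 and 1.85 FPKM, a log2 fold change of 0.66 (SE 0.13, edgeR adjusted p = 2.54e-04). PFKFB2, the heart-type form (chromosome 1), rose by 24.9% from 3.39 ± 0.0100 to 4.33 ± 0.214 FPKM (SD, n = 3). PFKFB4 relative to PFKFB3 rose by 0.95 on the log2 scale, while the summed FPKM of the 3 genes overlapped between the groups. YOD1, on the strand opposite PFKFB2, had 342% as many counts as PFKFB2 and a log2 fold change of -0.26.

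In the later steps of glycolysis, where ATP and pyruvate are made, 4 of 7 genes fell, 1 rose and 2 were not called (71.4% called, against 58.0% of all tested genes). PGAM1, phosphoglycerate mutase (chromosome 10), fell the most, from 152.81, 150.01 and 153.86 FPKM in the wild type to 106.76, 104.52 and 110.24 FPKM in the mutant. The groups were far apart, with a log2 fold change of -0.54 (SE 0.04, edgeR adjusted p = 2.31e-09). ENO1, the main enolase (chromosome 1), had a log2 fold change of -0.32 (SE 0.04, edgeR adjusted p = 1.06e-06) and went from 501.55, 471.65 and 487.66 FPKM to 387.37, 407.07 and 400.14 FPKM. PKM, pyruvate kinase (chromosome 15), fell by 13.5%, from 151 ± 6.04 to 134 ± 5.32 FPKM (SD, n = 3), and these counts per gene do not separate its M1 and M2 splice forms. PGK1, phosphoglycerate kinase (chromosome X), was the gene that rose, from 114.81, 109.71 and 118.24 FPKM to 126.12, 141.39 and 136.40 FPKM (log2 fold change 0.20, SE 0.04, edgeR adjusted p = 8.13e-04).

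GAPDH, glyceraldehyde 3-phosphate dehydrogenase and the most abundant of the 48 transcripts (chromosome 12), had 897 ± 25.4 FPKM in the mutant and 962 ± 21.8 FPKM in the wild type (SD, n = 3). Its log2 fold change of -0.13 (SE 0.04, edgeR adjusted p = 0.00528) depended on the scaling. It was called in the opposite direction after quantile normalization (0.17, limma adjusted p = 0.00849) and not called on TPM (-0.06, limma adjusted p = 0.177), in limma on log2(FPKM + 1) (-0.10, adjusted p = 0.0840) or among genes with a mean of at least 5 FPKM (-0.09, edgeR adjusted p = 0.0670). The table lists 65 GAPDH pseudogenes, with 0.104 to 0.174% as many counts as GAPDH. ENO2, the neuronal enolase (chromosome 12), stood at 2.55, 3.18 and 2.84 FPKM in the mutant and 3.16, 1.52 and 1.99 FPKM in the wild type. Wild-type replicate 1 lay among the mutant values, and without it the rise was called (log2 fold change 0.66 against 0.32 with it, edgeR adjusted p = 7.41e-04). ENO3, the muscle enolase (chromosome 17), stood at 1.24 ± 0.0379 FPKM in the mutant and 1.02 ± 0.116 FPKM in the wild type (SD, n = 3) and was not called. PFN1 on the opposite strand had a median of 9125 counts against 84.5 for ENO3, so the value of ENO3 is uncertain.

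The 2 lactate dehydrogenase subunits changed in opposite directions. LDHA, the muscle-type subunit that favours making lactate (chromosome 11), stood at 181.39, 193.79 and 189.90 FPKM in the mutant and 216.83, 217.69 and 222.41 FPKM in the wild type, a log2 fold change of -0.25 (SE 0.04, edgeR adjusted p = 2.30e-05). LDHB, the heart-type subunit (chromosome 12), stood at 193.09, 189.37 and 185.88 FPKM in the mutant and 164.71, 162.55 and 169.62 FPKM in the wild type, a log2 fold change of 0.16 (SE 0.04, edgeR adjusted p = 0.00116). LDHB was the lesser transcript in each wild-type library, at 42.7 to 43.3% of the summed FPKM, and about equal to LDHA in the mutant libraries, at 49.4 to 51.6%. The sum overlapped between the groups, at 378 ± 4.68 FPKM in the mutant and 385 ± 6.46 FPKM in the wild type (SD, n = 3). LDHB rose about as much as its neighbours on chromosome 12 (median of the 20 nearest 0.14), and LDHA did not (0.03).

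Genes that take pyruvate into mitochondria and the TCA cycle were lower or not called. PC, pyruvate carboxylase, which refills oxaloacetate (chromosome 11), fell from 5.06, 4.84 and 4.63 FPKM in the wild type to 3.84, 3.56 and 3.81 FPKM in the mutant, a log2 fold change of -0.41 (SE 0.07, edgeR adjusted p = 8.66e-05). MPC1, a subunit of the mitochondrial pyruvate carrier (chromosome 6), fell by 17.3%, from values of 34.69 to 38.63 FPKM to values of 27.91 to 32.62 FPKM. Its partner MPC2 (chromosome 1) overlapped between the groups (log2 fold change -0.05, 95% interval -0.18 to 0.07). The opposite-strand genes LRFN4 (at PC) and DCAF6 (at MPC2) had 54.0% and 153% as many counts as these genes.

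The subunits of the pyruvate dehydrogenase complex differed little, while the kinases that inhibit it were higher. PDHA1 (chromosome X) and PDHB (chromosome 3), of the first enzyme, DLAT (chromosome 11), the acetyl-transferring core, and DLD (chromosome 7), which reoxidises the lipoyl arm, had log2 fold changes of -0.09, -0.16, -0.10 and -0.11. PDHB and DLD passed the test, although their groups overlapped in FPKM. PDHA1 and DLAT passed only in the fit without the expression minimum (edgeR adjusted p = 0.0234 and 0.0276). The PDHB call (edgeR adjusted p = 0.0145) was lost in 7 of 17 alternative fits, for example without mutant replicate 1 (0.0808) or wild-type replicate 2 (0.0714). The DLD call (0.0447) was lost in 13 of the 17, for example without mutant replicate 1 (0.0613), 2 (0.138) and 3 (0.0938) and wild-type replicates 2 (0.234) and 3 (0.0812). LAMB1, on the strand opposite DLD, had 52.1% as many counts as DLD and a log2 fold change of 0.99.

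All 3 kinase genes above the expression minimum were called higher, as were 29.4% of all tested genes. PDK1 (chromosome 2), a known target of hypoxia signalling, stood at 3.55, 3.75 and 3.96 FPKM in the mutant and 2.07, 2.42 and 2.48 FPKM in the wild type, with no overlap and a log2 fold change of 0.66 (SE 0.07, edgeR adjusted p = 6.59e-07). PDK3 (chromosome X) rose by 18.2%, from 3.57 ± 0.140 to 4.32 ± 0.222 FPKM (SD, n = 3), and was not called after quantile normalization (limma adjusted p = 0.125). PDK2 (chromosome 17) rose by 17.1%, from values of 3.52 to 4.29 FPKM to values of 4.64 to 4.94 FPKM. The PDK2 call (edgeR adjusted p = 0.0294) was lost without mutant replicate 2 (0.102) or 3 (0.0638) or wild-type replicate 2 (0.149). The summed FPKM of the 3 kinases was 1.30 times the wild-type sum, at 12.9 ± 0.357 against 9.88 ± 0.251 (SD, n = 3), and the groups did not overlap. The fourth kinase, PDK4, lay below that minimum and was also higher in all mutant libraries, at 0.48, 0.50 and 0.47 FPKM against 0.21, 0.17 and 0.15 FPKM (12 to 44 counts). Without the minimum its log2 fold change was 1.37 (SE 0.31, edgeR adjusted p = 5.57e-05). In that same fit PDK1 had an edgeR adjusted p of 5.44e-17, so p-values of the 2 fits are not comparable.

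Within the TCA cycle, 2 of 12 mitochondrial enzymes rose, 4 fell and 6 were not called. The 50.0% called did not exceed the 58.0% of all tested genes. In this group the 2 forms of isocitrate dehydrogenase parted. IDH2, which yields NADPH (chromosome 15), stood at 18.23, 21.19 and 18.22 FPKM in the mutant and 9.42, 8.85 and 8.17 FPKM in the wild type. The lowest mutant value was far above the highest wild-type value, and the log2 fold change was 1.09 (SE 0.08, 95% interval 0.93 to 1.26, edgeR adjusted p = 2.81e-09). The 20 tested genes nearest to it had a median of -0.03. IDH3B, a regulatory subunit of the NAD-dependent enzyme (chromosome 20), stood at 24.04, 25.73 and 24.86 FPKM in the mutant and 39.00, 39.79 and 43.10 FPKM in the wild type, a log2 fold change of -0.74 (SE 0.05, edgeR adjusted p = 2.95e-09). It lies at position 2658395 to 2664219 (GRCh38), where the 20 nearest tested genes had a median of -0.57, against -0.12 for the chromosome.

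The partner subunits of IDH3B moved less. IDH3A, the catalytic subunit (chromosome 15), fell by 15.4%, from 9.94 ± 0.690 to 8.61 ± 0.431 FPKM (SD, n = 3), and lost its call on TPM (limma adjusted p = 0.0543). IDH3G, the other regulatory subunit (chromosome X), was not called (log2 fold change -0.11, 95% interval -0.24 to 0.03). In FPKM, IDH3B was the most abundant of the 3 in every library, and their sum was 51.4 ± 2.09 in the mutant and 69.4 ± 2.96 in the wild type (SD, n = 3). Opposite-strand CIB2 had 36.2% as many counts as IDH3A, and SSR4 had 218% as many as IDH3G.

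Succinyl-CoA ligase joins SUCLG1 to either an ATP-forming (SUCLA2) or a GTP-forming (SUCLG2) partner. SUCLG2 (chromosome 3) rose from 17.35, 16.70 and 18.06 FPKM in the wild type to 24.51, 23.07 and 22.61 FPKM in the mutant, a log2 fold change of 0.40 (SE 0.06, edgeR adjusted p = 8.39e-06). SUCLA2 (chromosome 13) overlapped between the groups, at 11.7 ± 0.226 and 11.4 ± 0.497 FPKM (SD, n = 3; log2 fold change 0.00, 95% interval -0.10 to 0.10). SUCLA2 therefore made up 33.3% of the pair in the mutant and 39.6% in the wild type. The common subunit SUCLG1 (chromosome 2) had a log2 fold change of -0.12 (edgeR adjusted p = 0.0308), with overlapping FPKM. That call was lost in 11 of the 17, for example without mutant replicate 1 (0.108) or 2 (0.0712) or wild-type replicate 3 (0.109).

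The other steps of the cycle changed by less. CS, citrate synthase, the entry step (chromosome 12), fell by 9.19%, from 73.9 ± 2.75 to 68.6 ± 0.819 FPKM (SD, n = 3), and was not called after quantile normalization (-0.03, limma adjusted p = 0.425) or on TPM (-0.07, limma adjusted p = 0.166). OGDH (chromosome 7) and DLST (chromosome 14), of the 2-oxoglutarate dehydrogenase complex, FH, fumarase (chromosome 1), and MDH2, mitochondrial malate dehydrogenase (chromosome 7), had log2 fold changes of 0.11, -0.10, -0.10 and -0.02 and were not called. Without wild-type replicate 1 the rise of OGDH (edgeR adjusted p = 0.0132) and the fall of DLST (0.0346) were called, as was the fall of FH without mutant replicate 2 (0.0407). OGDH was also called under 3 other scalings (adjusted p = 0.0357 to 0.0477). In the fit without the expression minimum, DLST (edgeR adjusted p = 0.0344) and FH (0.0354) were called lower. The cytosolic enzymes ACO1, which also acts as an iron-regulated RNA-binding protein (chromosome 9), IDH1 and MDH1 (both chromosome 2) were not called, with log2 fold changes of -0.10, -0.10 and 0.02. ACO1 (edgeR adjusted p = 0.0469) and IDH1 (0.0356) were called lower in the fit without the expression minimum. Of the summed FPKM of IDH1 and IDH2, IDH1 made up 58.4 ± 2.41% in mutant libraries and 76.1 ± 1.22% in wild-type libraries (SD, n = 3).

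Of the 48 genes, 6 lie on chromosomes 10, 16 or 20, whose tested genes had median log2 fold changes of -0.36, 0.29 and -0.13. All 4 genes on chromosome 10 (HK1, PFKP, PFKFB3 and PGAM1) fell, as did 65.0% of the 492 tested genes there, against 28.7% of all tested genes. Their log2 fold changes (-0.47, -0.27, -0.28 and -0.54) lay around the median of the other genes of that chromosome, -0.36. Set against the 20 nearest tested genes, HK1, PFKP and PFKFB3 differed by -0.02, 0.06 and 0.07, and PGAM1 by -0.21. IDH3B lay 0.17 below its neighbours on chromosome 20. ALDOA, on chromosome 16 where 62.6% of tested genes rose, lay 0.45 below its neighbours. Copy number was not measured, so its part in these values was not tested.

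Among the other 42 genes, 12 rose, 14 fell and 16 were not called, and the median log2 fold change was -0.07. That is 61.9% called, 28.6% higher and 33.3% lower, near the 58.0%, 29.4% and 28.7% of all tested genes. In a fit without the genes of chromosomes 10, 16, 20 and 22, chosen after seeing the data, the counts for these 42 were again 12 and 14. Over all 48 genes, the largest distances from the neighbours' median were those of IDH2 (1.12), PFKFB4 (0.74), PDK1 (0.60) and SLC2A3 (0.58) upward, and of GPI (-0.45), ALDOA (-0.45), DLD (-0.35) and MPC1 (-0.30) downward. These distances are descriptions with no test.

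**Figure D4:**
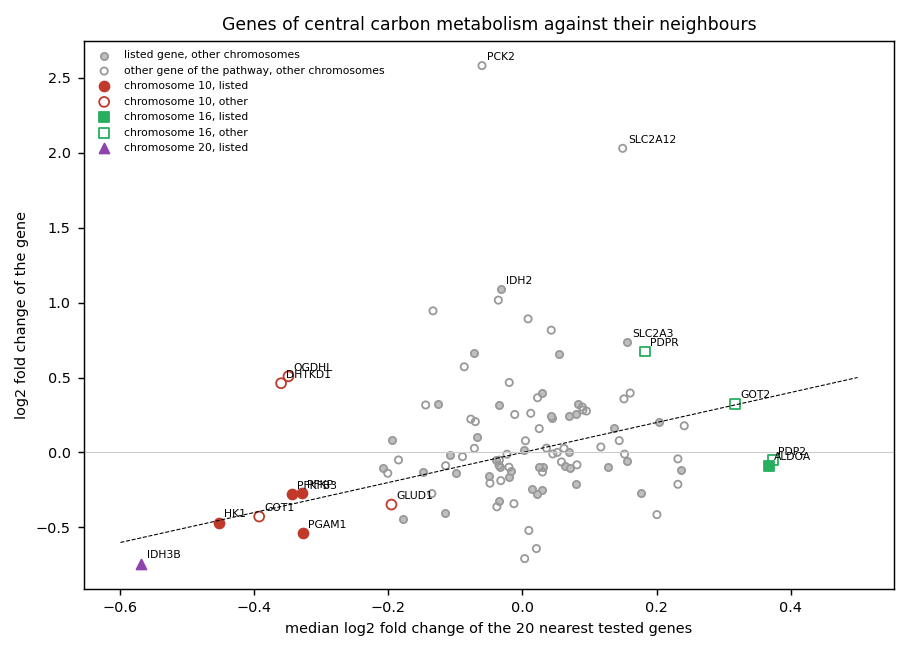
Log2 fold change of each listed gene (filled) and each other tested gene of the pathway (open; those of chromosome 22 not drawn) against the median of its 20 nearest tested genes, with genes of chromosomes 10, 16 and 20 coloured and named and the dashed line marking equality. HK1, PFKP, PFKFB3 and GOT1 lie near the line; IDH2, SLC2A12 and PCK2 lie far above it, and ALDOA below it.

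Genes of the same pathways that are not among the 48 were taken from a list of 85, of which 61 reached the expression minimum. Of these, 23 were higher, 13 lower and 25 not called (59.0% called, against 58.0% of all tested genes), with a median log2 fold change of 0.03. PCK2, the mitochondrial phosphoenolpyruvate carboxykinase, which draws carbon out of the TCA cycle (chromosome 14), rose from 2.99, 2.43 and 2.71 FPKM to 16.45, 16.70 and 16.65 FPKM, a log2 fold change of 2.58 (SE 0.08, edgeR adjusted p = 7.31e-14). SLC2A12, which encodes the glucose transporter GLUT12 (chromosome 6), rose from 1.24, 0.83 and 0.78 FPKM to 3.97, 3.61 and 4.35 FPKM (log2 fold change 2.03, SE 0.14, edgeR adjusted p = 1.98e-09). At a mean of 3.98 FPKM in the mutant it remained below SLC2A1, at 5.55 FPKM. G6PC3, a glucose 6-phosphatase, rose by 0.40 on the log2 scale, and PGM1, phosphoglucomutase, by 0.36. TIGAR, which lowers fructose 2,6-bisphosphate, fell by 0.64 and PGM2 by 0.21. Among monocarboxylate carriers, SLC16A1 (92.3 ± 1.93 against 91.0 ± 2.60 FPKM, SD, n = 3) and its chaperone BSG had log2 fold changes of -0.01 and 0.00. SLC16A7 lay below the expression minimum and was higher in all mutant libraries, at 1.18, 1.16 and 1.16 FPKM against 0.21, 0.19 and 0.18 FPKM. Without the minimum its log2 fold change was 2.51 (SE 0.15, edgeR adjusted p = 9.76e-60). That p-value cannot be set against those of the main fit, since PCK2 had an edgeR adjusted p of 2.04e-203 without the minimum.

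Around the pyruvate dehydrogenase complex and the TCA cycle, 4 of 17 further genes rose, 3 fell and 10 were not called (41.2% called, below the 58.0% of all tested genes). PDPR, a regulatory subunit of the phosphatase that reactivates the complex (chromosome 16), rose by 0.67 on the log2 scale, from 7.59 ± 0.262 to 12.4 ± 0.802 FPKM (SD, n = 3). OGDHL and DHTKD1, which resemble OGDH, rose by 0.51 and 0.46 although both lie on chromosome 10, where the neighbours' medians were -0.35 and -0.36. LIPT1, which attaches the lipoyl group to the dehydrogenases, fell by 0.52, and PDHX, which binds DLD to the complex, by 0.14. The succinate dehydrogenase genes SDHA, SDHB, SDHC and SDHD had log2 fold changes of 0.03, -0.09, -0.10 and -0.09 and were not called.

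Of 14 tested carriers and enzymes that feed the cycle, 5 rose, 4 fell and 5 were not called (64.3% called, against 58.0% of all tested genes). In the malate-aspartate shuttle, which moves NADH into mitochondria, GOT1 (chromosome 10) changed by -0.43 and its mitochondrial partner GOT2 (chromosome 16) by 0.33, each close to its neighbours' medians of -0.39 and 0.32. Of the 2 aspartate-glutamate carriers of the same shuttle, SLC25A13 fell by 0.41 and SLC25A12 rose by 0.28, with neighbours' medians of 0.20 and 0.10. GPD1L and GPD2, of glycerol phosphate metabolism, rose by 0.37 and 0.28, and GLUD1, glutamate dehydrogenase (chromosome 10), fell by 0.35.

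Known regulators of these genes also differed. Of 17 tested, 10 rose, 4 fell and 3 were not called (82.4% called, against 58.0% of all tested genes). MYC, a transcription factor known to act on glycolytic genes, stood at 73.72, 75.34 and 70.04 FPKM in the mutant and 35.21, 33.22 and 37.50 FPKM in the wild type (log2 fold change 1.02, SE 0.05, edgeR adjusted p = 1.06e-11). HIF1A, the hypoxia factor subunit whose protein accumulates at low oxygen, stood at 25.97, 26.29 and 26.48 FPKM in the mutant and 28.67, 33.68 and 30.72 FPKM in the wild type, a log2 fold change of -0.27 (SE 0.05, edgeR adjusted p = 2.66e-04). The related subunit EPAS1 and the common partner ARNT went the other way and rose by 0.82 and 0.30. VHL, which marks HIF1A and EPAS1 for degradation, rose by 0.57. TXNIP and ARRDC4, related arrestins that curb glucose uptake and are known targets of the glucose sensors MLXIP and MLXIPL, parted: TXNIP fell by 0.71 and ARRDC4 rose by 0.89. Of the sensors, MLXIP fell by 0.36 and MLXIPL rose by 0.94 (3.01 ± 0.0757 against 1.53 ± 0.217 FPKM, SD, n = 3).

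MYC and the glucose sensors are known to bind sequences around CACGTG, so the 250 bases before each RefSeq gene start (GRCh38.p14) were searched for these letters, which read the same on both strands. Of the 48 genes, 45 had an entry. CACGTG was found before at least 1 listed start for 8 of the 45 genes (17.8%), against 7.73% of 27305 genes. It was found for 1 of 10 higher, 4 of 19 lower and 3 of 16 uncalled genes, the last being HK2, ALDOA and ALDOC. The hypoxia core ACGTG, which CACGTG contains, was found on either strand for 44.4% of the 45, against 21.7% of all, and its other form GCGTG for 27 of the 45, against 36.2% of all. The 27305 genes were not limited to expressed genes, whereas all 45 had passed the expression minimum. A gene with more listed starts also had more chances of a match. The shares are therefore no test of enrichment, and a match is a description of these letters only. The sites of the called genes and of HK2, printed so that their flanks can be compared, read in the direction of the gene, with CACGTG in capitals. Labels give the call of the main fit. For GAPDH the label also names the fit in which its direction turned, and its call was lost in 4 further fits.

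LDHA (lower, 185 bases before the start, chr11:18394366-18394395, plus strand): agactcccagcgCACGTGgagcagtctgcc
LDHA (lower, 87 bases before, chr11:18394464-18394493, plus strand): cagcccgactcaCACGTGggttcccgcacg
GAPDH (lower except after quantile normalization, 81 bases before, chr12:6535171-6535200, plus strand): gctctgcggggtCACGTGtcgcagaggagc
PFKFB3 (lower, 108 bases before, chr10:6202812-6202841, plus strand): caccctcctcccCACGTGgaagggggctgg
PDHB (lower, 236 bases before, chr3:58434051-58434080, minus strand): acaccgaccaggCACGTGtgcccagcgtgc
PDK2 (higher, 129 bases before, chr17:50095210-50095239, plus strand): cccgggggaagcCACGTGccggggcggaag
HK2 (not called, 194 bases before, chr2:74834964-74834993, plus strand): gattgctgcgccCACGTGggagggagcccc
HK2 (not called, 149 bases before, chr2:74835009-74835038, plus strand): ttccggcgagagCACGTGgagagaatcgtg

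LDHA and HK2 were the genes with 2 matches before 1 start. LDHA fell by 15.9%, while HK2 had a 95% interval of -0.15 to 0.05 on the log2 scale.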

How the data were processed

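Poly(A) RNA of 6 libraries (3 mutant, 3 wild type, grouped by their titles) was analysed. The tools named per the submitters' processing notes are HTSeq, HISAT2 (2.0.1) and cutadapt, with GRCh38 as the build and no role or order given. The deposited file holds counts and FPKM per gene: FPKM recomputed from counts, exonic lengths and library totals matched within 0.005. Annotation release and strand setting were not given in the sources used here. All 48 members and all lists were chosen with earlier results of these data known.

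Genes with a mean of at least 1 FPKM (12550) were tested in edgeR 4.0.16 (R 4.3.3) by the quasi-likelihood F-test on counts scaled by trimmed means (TMM), two-sided, with Benjamini-Hochberg adjustment over all tested genes and calls below 0.05. Pairs were tested by exact permutation. Named genes are all 48 members, up to 3 called genes a direction in each group of the second list, and SDHA to SDHD, MYC, HIF1A and TXNIP; SLC16A1, SLC16A7, BSG, PDK4, SLC25A12, MLXIPL, EPAS1 and ARNT were named, and neighbour windows, overlapping genes and motifs added, after values were seen. Some results that the rule names are not reported here. The script was tested on simulated data. Alternatives used limma 3.58.1, DESeq2 1.42.0, other scalings and filters, and left-out libraries. No 2 libraries of a group were duplicates (chi-square per degree of freedom at least 2.52).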

Additional observations from a re-analysis of the deposited data

How the results depend on the processing

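Of the 31 called genes, 22 (10 higher, 12 lower) were called in the same direction in every alternative fitted, and 9 lost the call in at least 1. Of the 17 genes not called, 9 were called in none and 8 in at least 1. Same-numbered libraries did not deviate together (r = 0.00, -0.04 and -0.01), so the numbers were not read as pairs; with the replicate number as a block, 12 listed genes were higher and 17 lower, against 12 and 19 without it, and the DLD (edgeR adjusted p = 0.0728) and SUCLG1 (0.0502) calls were lost.

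At a minimum of 5 FPKM, 7 listed genes were higher; 6 of the 12 lie below that minimum. On TPM, 12 were lower. The listed genes' median of -0.0953 was -0.0583 with library totals, -0.0234 after quantile normalization, -0.0256 on TPM, -0.0604 and -0.0623 in limma with pseudocounts of 1 and 0.1, -0.133 without a filter and -0.055 at 5 FPKM. Their median distance from the chromosome's median, -0.0684, was -0.045 at 5 FPKM. The median of the other pathway genes, 0.0275, was 0.0644 with library totals, 0.0946 on TPM, 0.051 and 0.0605 with the pseudocounts, 0.041 without a filter, 0.0424 at 5 FPKM, and 0.0104 to 0.0387 with 1 library left out. The median of all tested genes, -0.000708, moved as well. It was 0.0363 with library totals, 0.0657 on TPM, 0.0275 and 0.0317 with the pseudocounts, and -0.0197 after quantile normalization. Without a filter and at 5 FPKM it was -0.00278 and -0.00238. The cause of these moves was not tested.

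GAPDH was the called gene that turned, to 0.169 after quantile normalization. The other turns were of uncalled genes near 0: HK2 to 0.0146 (quantile) and 0.0201 (TPM), MPC2 to 0.00978 and 0.0132 in the same fits, and ENO3 to -0.0124 (quantile). MDH2 turned to 0.0168 with library totals, 0.086 (quantile), 0.0491 (TPM), 0.0124 and 0.0126 with the pseudocounts and 0.0271 at 5 FPKM, and ranged from -0.045 to 0.0111 with 1 library left out. SUCLA2 turned to -0.035 without a filter and -0.00238 without chromosomes 10, 16, 20 and 22, and ranged from -0.0359 to 0.027 with 1 library left out. MDH1 turned to -0.0204 without a filter and ranged from -0.0112 to 0.0462. Depth limits ENO3 and PFKFB4 most, which had the fewest counts.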
